A study of Mus musculus with 6 samples.

Results

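DNA replication and mitosis genes were described in livers of HMGB2-KO and WT mice. The set was a list of 38 genes chosen by name, of which 35 had a probe set labelled with that gene alone, out of 22203 probe sets with a gene symbol. They were divided by role into 11 measured replication genes, 3 measured regulators of the step from G1 to S phase, and 21 measured mitosis genes. The other 3 listed genes, Mcm7, Ccnd1 and Foxm1, sat on probe sets whose label also names another gene, and they are given apart from the counts.

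The animals were male C57BL/6 mice aged 8 weeks. There were 3 livers per genotype, each hybridised to a Clariom S mouse array, and the labels name no surgery, diet or drug in either group. HMGB2 is a chromatin protein that bends DNA. The labels do not say how the HMGB2-KO allele was made, in which cells it acts, or whether livers came from separate mice, so the p-values here reflect the scatter of these 6 samples, part of which may be technical. The series title concerns liver regeneration, while these 6 livers carry no label of regeneration.

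As background, hepatocytes of the adult liver are mostly quiescent and re-enter the cell cycle after loss of tissue. In cycling cells, origins are licensed by loading the MCM helicase in G1, DNA is copied in S phase, and chromosomes are separated in mitosis by cyclin B and CDK1, the spindle and its checkpoint. Many replication genes carry E2F sites in their promoters, and many mitosis genes carry a CHR element (cell cycle genes homology region) beside CCAAT boxes. The DREAM complex, a repressor in resting cells, binds through E2F sites and CHR elements.

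Promoter sequences of the replication and mitosis genes show this division in part. RefSeq windows of GRCm38.p6, from 250 bases before the start site to 50 bases after it, were at hand for 31 of the 38 genes. Mcm4, Ccnd1, Ccne2, Ccna2, Foxm1, Aurkb and Tpx2 had no entry. The E2F site was searched as TTTCGCGC, TTTGGCGC, TTTCCCGC or TTTGCCGC, the CHR as TTTGAA or TTCGAA, and the CCAAT box as CCAAT, each on both strands, with overlapping matches kept. The 6 windows below are those of the 4 genes with the smallest unadjusted p in the fit, Cdc6, Ttk, Mki67 and Top2a, together with Mcm6 and Cdk1 as a replication and a mitosis gene whose groups overlapped. They are written 5′ to 3′ on the strand of the gene, and capitals mark the matches.

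The replication genes shown were Cdc6 (chr11:98907901-98908200, plus strand, with 1 E2F match) and Mcm6 (chr1:128359656-128359955, minus strand). In Mcm6, 2 of its 3 E2F matches overlap on opposite strands, beside 2 CCAAT boxes.
Cdc6: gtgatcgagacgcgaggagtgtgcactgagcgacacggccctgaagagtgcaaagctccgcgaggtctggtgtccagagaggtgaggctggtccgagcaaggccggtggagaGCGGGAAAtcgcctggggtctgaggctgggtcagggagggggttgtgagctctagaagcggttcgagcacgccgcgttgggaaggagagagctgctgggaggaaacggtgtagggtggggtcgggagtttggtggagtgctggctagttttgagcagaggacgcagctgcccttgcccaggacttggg
Mcm6: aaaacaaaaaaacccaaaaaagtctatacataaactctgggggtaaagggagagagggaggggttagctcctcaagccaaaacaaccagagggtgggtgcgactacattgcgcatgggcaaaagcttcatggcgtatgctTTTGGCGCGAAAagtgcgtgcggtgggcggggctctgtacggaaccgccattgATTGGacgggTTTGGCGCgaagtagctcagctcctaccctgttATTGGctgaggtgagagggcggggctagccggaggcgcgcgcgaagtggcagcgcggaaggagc

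The mitosis genes shown were Ttk (chr9:83834439-83834738, plus strand), Mki67 (chr7:135716330-135716629, minus strand), Top2a (chr11:99024140-99024439, minus strand) and Cdk1 (chr10:69352863-69353162, minus strand). Each holds both CHR and CCAAT matches, and Cdk1 adds an E2F site.
Ttk: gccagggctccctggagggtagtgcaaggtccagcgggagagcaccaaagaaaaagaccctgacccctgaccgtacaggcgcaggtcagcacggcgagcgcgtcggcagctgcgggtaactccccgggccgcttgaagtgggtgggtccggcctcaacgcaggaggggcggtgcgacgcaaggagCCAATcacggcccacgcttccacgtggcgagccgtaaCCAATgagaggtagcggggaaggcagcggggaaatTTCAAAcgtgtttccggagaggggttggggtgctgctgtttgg
Mki67: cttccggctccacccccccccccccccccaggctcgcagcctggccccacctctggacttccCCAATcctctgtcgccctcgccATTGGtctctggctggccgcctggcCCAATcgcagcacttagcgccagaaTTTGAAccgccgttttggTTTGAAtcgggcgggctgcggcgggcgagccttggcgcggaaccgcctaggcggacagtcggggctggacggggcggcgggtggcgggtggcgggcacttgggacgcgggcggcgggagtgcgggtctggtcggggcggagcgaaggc
Top2a: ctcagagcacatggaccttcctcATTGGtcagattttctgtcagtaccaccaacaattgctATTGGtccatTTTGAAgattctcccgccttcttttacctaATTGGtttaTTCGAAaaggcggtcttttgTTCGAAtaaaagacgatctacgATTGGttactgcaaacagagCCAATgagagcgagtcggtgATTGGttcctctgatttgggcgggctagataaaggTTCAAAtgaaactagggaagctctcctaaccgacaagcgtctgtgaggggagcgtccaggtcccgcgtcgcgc
Cdk1: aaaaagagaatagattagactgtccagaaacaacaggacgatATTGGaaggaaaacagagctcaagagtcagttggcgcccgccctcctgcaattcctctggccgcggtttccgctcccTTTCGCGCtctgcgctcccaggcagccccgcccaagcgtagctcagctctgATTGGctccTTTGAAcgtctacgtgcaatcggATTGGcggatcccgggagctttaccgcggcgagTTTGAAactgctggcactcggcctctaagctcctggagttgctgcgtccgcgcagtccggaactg

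Over all windows, an E2F site was found in 6 of 11 replication promoters (54.5%), in 1 of 18 mitosis promoters (5.56%) and in 2.33% of 26742 promoters of all genes. The CHR was found in 13 of 18 mitosis promoters (72.2%), in 2 of 11 replication promoters (18.2%) and in 19.3% of all promoters. A CCAAT box was present in 14 of 18 mitosis promoters and 8 of 11 replication promoters, against 37.9% of all. Both CHR and CCAAT stood in 12 of 18 mitosis promoters (66.7%) and in 7.68% of all. The windows of the G1/S regulators Ccne1 and E2f1 held no match to any of these motifs. These are letter matches in the windows, and binding was not measured.

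**Figure D1:**
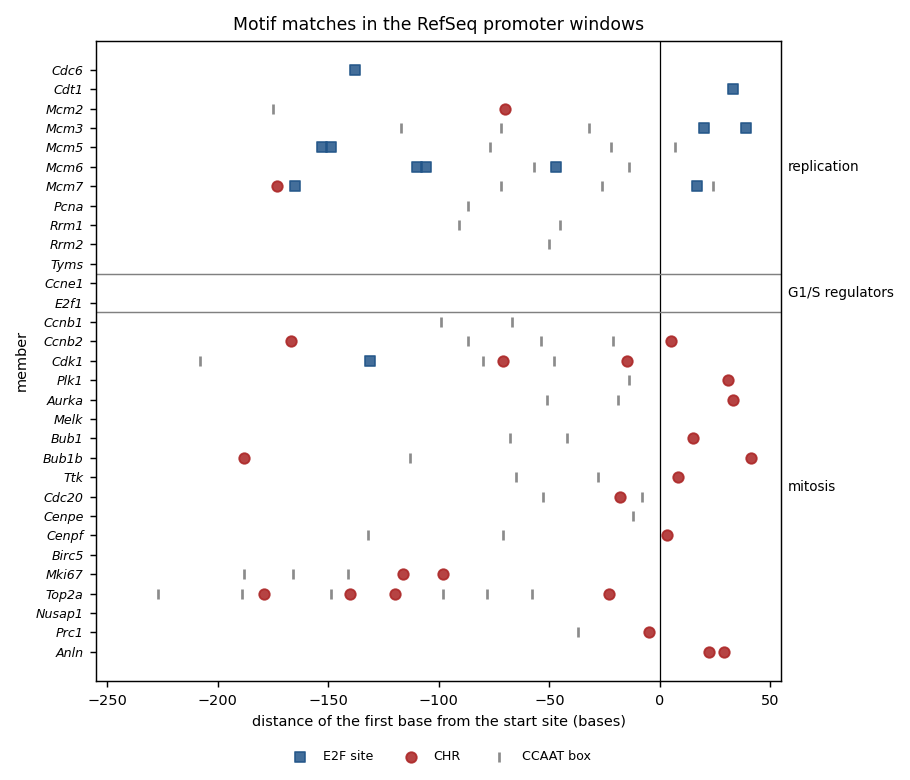
Motif matches in the promoter windows of 31 members, with 1 row per gene; the horizontal axis is the distance in bases of a match's first base from the start site, and symbols give the motif. E2F sites fall mostly in the replication rows (6 of 11 promoters) and the CHR in the mitosis rows (13 of 18 promoters).

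The arrays give values read as log2 and as centred gene by gene, so that 0 was taken as each gene's own middle. The arrays on which that zero was set are not stated. They were taken as a set wider than these 6, because 5.84% of all probe sets were below 0 in all 6. On this reading, -1 means a level 2-fold below that gene's own middle. Neither absolute brightness nor an order of levels between genes can be read from such values. For the same reason, hepatocyte identity could not be checked from the brightness of its markers. WT replicate 2 stood apart, with a median over all probe sets of 0.26, where the other 5 arrays had -0.05 to 0.01, and an SD of 0.53, where they had 0.32 to 0.36. It also held 70 isolated values, over 3 log2 units lower than in any other array. Results are therefore given with and without it, and both as deposited and after each array was centred on its median. Below, the 3 values of a genotype follow the order of the replicate numbers. Hmgb2, the targeted gene, read 0.48, 0.62 and 0.38 in WT livers and -0.70, -0.38 and -0.48 in HMGB2-KO livers, and the groups did not overlap. Its change was -1.01 ± 0.15 (SE), with a limma adjusted p of 0.469.

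In both genotypes most members stood below their own zero. All 21 mitosis genes and all 3 measured G1/S regulators were below 0 in all 6 livers, as were 8 of 11 replication genes, whereas 5.84% of all probe sets were. The exceptions were Cdc6, Cdt1 and Mcm5. Mean levels of mitosis genes ran from -2.57 (Plk1) to -0.62 (Melk) in WT and from -2.85 (Mki67) to -0.95 (Melk) in HMGB2-KO. For replication genes they ran from -1.26 (Rrm2) to -0.03 (Cdc6) in WT and from -1.60 (Rrm2) to -0.26 (Mcm5) in HMGB2-KO. Any other arrays that set the zero were not analysed here.

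The distance from zero was greater for mitosis than for replication genes in every liver. The mitosis median was -1.63, -1.46 and -1.47 in WT and -1.59, -1.77 and -1.72 in HMGB2-KO. The replication median was -0.75, -0.44 and -0.61 in WT and -0.66, -0.92 and -0.57 in HMGB2-KO. Mitosis minus replication averaged -0.92 ± 0.08 over the WT livers and -0.98 ± 0.16 over the HMGB2-KO livers (SD, n = 3 each), so the gap between the classes differed between genotypes by less than the spread of the livers. In bulk tissue, fewer cycling cells and less RNA per cell cannot be told apart.

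**Figure D2:**
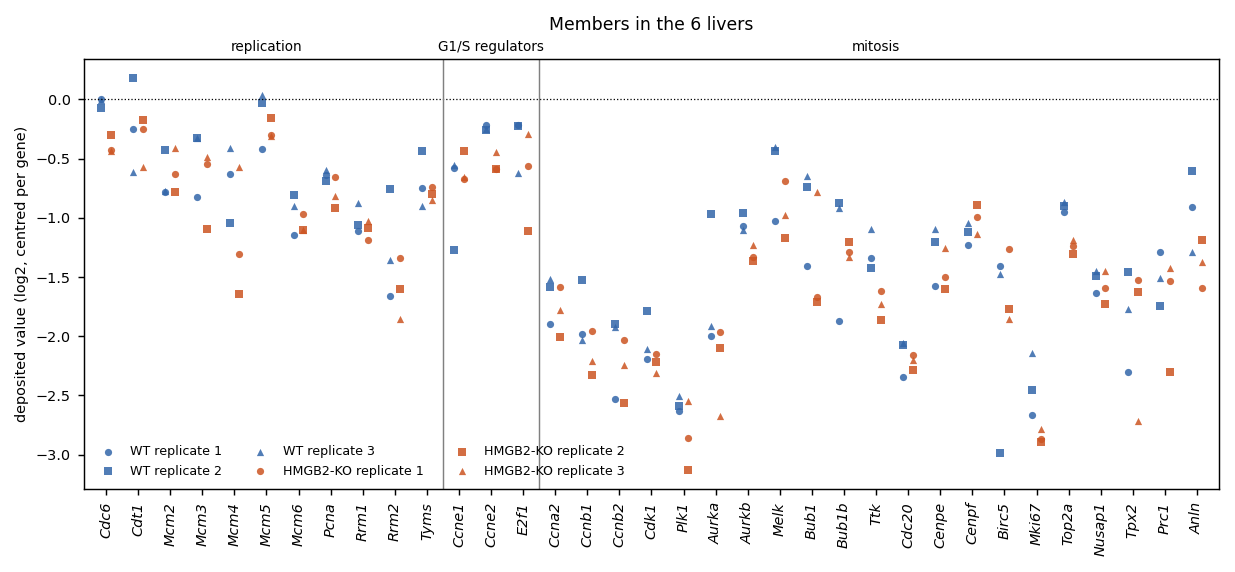
Deposited value (log2, centred per gene) of the 35 measured members in each liver, with WT in blue and HMGB2-KO in orange and the symbol giving the replicate; vertical lines divide replication genes, G1/S regulators and mitosis genes. All 21 mitosis genes lie below 0 in all 6 livers, and the 2 genotypes overlap for 29 of the 35 genes.

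Between genotypes, no member passed the adjusted threshold, and the differences were small. Of 22203 probe sets, 0 (0%) passed an adjusted p of 0.05 in limma and 1092 had an unadjusted p under 0.05, and the members' adjusted p ran from 0.852 to 0.979. At an unadjusted p under 0.05, 4 of 35 members (11.4%) were lower in HMGB2-KO, namely Cdc6, Ttk, Mki67 and Top2a, where 4.85% of all probe sets were. On the higher side it was 0 of 35, against 0.0721% of all. As deposited, 31 of 35 changes were negative (88.6%), where 77.4% of all probe sets were negative. On centred arrays the shares were 22 of 35 (62.9%) and 51.5%. The median change was -0.20 over the members and -0.12 over all probe sets, a shift of all probe sets that was -0.04 without WT replicate 2.

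These 4 genes lost that mark on centred arrays, where 0 of 35 members reached an unadjusted p under 0.05 by limma, against 2.80% of all probe sets on the lower side and 1.03% on the higher side. Leaving out WT replicate 2 kept all 4 as deposited (2.48% of all probe sets), and kept Cdc6 and Ttk on centred arrays (1.86% of all). Neither fit had a member on the higher side, where 0.959% and 1.39% of all probe sets stood. Groups did not overlap for 6 of 35 members (17.1%), all lower in HMGB2-KO, against 10.9% of all probe sets on that side and 0.779% on the other. The 6 were Cdc6, Ccne2, Aurkb, Ttk, Mki67 and Top2a. On centred arrays Mki67 was the only member of the 35 left apart, where 5.57% of all probe sets were apart on the lower and 4.22% on the higher side. Without WT replicate 2, as deposited, the same 6 and Pcna were apart, all lower, against 12.5% of all probe sets lower and 5.98% higher. On centred arrays without that liver the same 6 were apart, against 9.79% lower and 8.19% higher.

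The licensing genes were the first step of the replication class. Cdc6, which loads the MCM helicase onto origins, read 0.0043, -0.08 and -0.0043 in WT and -0.43, -0.30 and -0.44 in HMGB2-KO. All HMGB2-KO livers were below all WT livers, by a mean of -0.37 ± 0.13 (SE), a 1.29-fold difference (limma unadjusted p 0.0229, adjusted p 0.852). The change was -0.25 after centring and -0.36 after centring without WT replicate 2. Cdt1, its partner in loading, read -0.25, 0.18 and -0.61 in WT and -0.25, -0.18 and -0.57 in HMGB2-KO. Its groups overlapped, and the change of -0.10 ± 0.22 (SE) turned to 0.01 on centred arrays.

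Among subunits of the MCM helicase, Mcm4 had the largest difference. Mcm4 read -0.63, -1.04 and -0.41 in WT and -1.31, -1.64 and -0.57 in HMGB2-KO livers, a change of -0.48 ± 0.29 (SE, limma adjusted p 0.852) with HMGB2-KO replicate 3 inside the WT range. Without WT replicate 2, on centred arrays, it was -0.62. Mcm2, Mcm3, Mcm5 and Mcm6 stood at changes of 0.05, -0.22, -0.12 and -0.11 with SEs of 0.15 to 0.22, and their groups overlapped. On centred arrays Mcm5 and Mcm6 stood at 0.0033 and 0.0085, where the median of all probe sets is -0.0057. The probe set labelled Mcm7, Mir93 and Mir25 read -1.04, -1.27 and -0.78 in WT and -1.12, -0.81 and -0.53 in HMGB2-KO livers, a change of 0.21 ± 0.20 (SE), or 0.08 without WT replicate 2.

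At the fork and in nucleotide supply the groups overlapped as deposited. Pcna, the sliding clamp of DNA polymerases, read -0.64, -0.69 and -0.59 in WT and -0.66, -0.92 and -0.82 in HMGB2-KO, or -0.16 ± 0.14 (SE) as deposited and -0.04 on centred arrays. As deposited, its WT livers lay close together, and the highest HMGB2-KO liver lay among them. Without WT replicate 2 the change was -0.18, with groups that did not overlap, and -0.15 on centred arrays, with groups that did. Rrm1 and Rrm2 encode the large and small subunits of ribonucleotide reductase, which makes deoxyribonucleotides. Mean Rrm1 values were -1.01 ± 0.12 in WT (SD, n = 3) and -1.10 ± 0.08 in HMGB2-KO (SD, n = 3). Rrm2 spread more widely, with -1.66, -0.76 and -1.36 in WT and -1.34, -1.60 and -1.86 in HMGB2-KO, and its change of -0.34 ± 0.25 (SE) became -0.06 on centred arrays without WT replicate 2. Tyms, the thymidylate synthase gene, changed by -0.10 ± 0.16 (SE), or 0.06 on centred arrays without WT replicate 2.

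The replication class as a whole sat at the median gene. Its median change was -0.12 as deposited, as was that of all probe sets, and 5 of 11 members lay below the median gene. On centred arrays without WT replicate 2 its median was -0.06, against -0.01 for all probe sets, with 8 of 11 below the median gene.

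Of the 3 regulators of G1 and S phase with a probe set of their own, Ccne2 was the one whose groups did not overlap. Ccne2, a cyclin E that activates CDK2, read -0.22, -0.26 and -0.25 in WT and -0.59, -0.59 and -0.45 in HMGB2-KO livers, a change of -0.30 ± 0.13 (SE, limma unadjusted p 0.0502, adjusted p 0.852). Its WT livers agreed within 0.02 (SD, n = 3) as deposited, and within 0.17 on centred arrays, where the groups overlapped. Ccne1, the other cyclin E, pointed the other way at 0.21 ± 0.22 (SE), with -0.58, -1.27 and -0.56 in WT and -0.68, -0.44 and -0.65 in HMGB2-KO. The low reading was WT replicate 2, and without it the change was -0.02. E2f1, a transcription factor that activates replication genes, read -0.22, -0.22 and -0.63 in WT and -0.56, -1.11 and -0.29 in HMGB2-KO, and the groups overlapped. The probe set labelled Ccnd1, the cyclin D of G1, and Mir3962 read -0.86, -0.74 and -0.84 in WT and -0.93, -1.41 and -0.87 in HMGB2-KO. Its groups did not overlap either, though the highest HMGB2-KO liver lay close to the lowest WT liver. Its change of -0.25 ± 0.18 (SE) came to -0.13 on centred arrays, with HMGB2-KO replicate 2 the lowest liver.

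Genes of mitotic entry were all lower in HMGB2-KO by their means, none at an unadjusted p under 0.05 by limma. All 8 measured genes had a negative change on centred arrays as well, with or without WT replicate 2. Of all probe sets, 77.4% were negative as deposited and 51.5% on centred arrays. The medians of the 3 fits were -0.27, -0.15 and -0.16, against -0.12, -0.0057 and -0.01 for all probe sets. With array weights, 6 of 8 were negative and 4 of 8 lay below the median gene. Cdk1, the kinase of mitotic entry, read -2.19, -1.78 and -2.11 in WT and -2.15, -2.22 and -2.31 in HMGB2-KO livers, a change of -0.20 ± 0.16 (SE), or -0.05 on centred arrays without WT replicate 2. The groups overlapped, and WT replicate 2 was the highest liver. Ccnb1 and Ccnb2, its B-type cyclins, changed by -0.32 ± 0.19 and -0.17 ± 0.22 (SE), and Ccna2, the cyclin of S phase and G2, by -0.13 ± 0.17. On centred arrays these 3 stood at -0.20, -0.05 and -0.0068.

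The Aurora kinases differed in how they varied. Aurka, which matures spindle poles, had the largest mean change of all members at -0.62 ± 0.31 (SE), a 1.54-fold difference. It read -2.00, -0.96 and -1.92 in WT and -1.97, -2.10 and -2.67 in HMGB2-KO, so that difference rested on WT replicate 2, the highest liver, and HMGB2-KO replicate 3, the lowest. Without WT replicate 2 it was -0.29, or -0.26 on centred arrays. Aurkb, of the chromosomal passenger complex, read -1.07, -0.96 and -1.10 in WT and -1.33, -1.36 and -1.23 in HMGB2-KO. Its groups did not overlap, with a change of -0.26 ± 0.13 (SE, limma adjusted p 0.852), and -0.20 on centred arrays without WT replicate 2. Plk1, the polo-like kinase, read -2.63, -2.59 and -2.50 in WT and -2.86, -3.13 and -2.55 in HMGB2-KO, with HMGB2-KO replicate 3 among the WT livers. Melk, a kinase high in dividing cells, changed by -0.32 ± 0.22 (SE). The probe set labelled Foxm1, a transcription factor of mitosis genes, and 4933413G19Rik read -2.54, -1.20 and -1.76 in WT and -2.35, -2.05 and -1.21 in HMGB2-KO, a spread within genotypes far wider than its change of -0.04 ± 0.39 (SE), which was 0.28 without WT replicate 2.

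In the spindle checkpoint and at the kinetochore, Ttk was the only measured gene whose groups did not overlap. Ttk, the checkpoint kinase MPS1, read -1.34, -1.42 and -1.10 in WT and -1.61, -1.86 and -1.72 in HMGB2-KO. Groups did not overlap, and the change was -0.45 ± 0.15 (SE), 1.36-fold, with a limma unadjusted p of 0.0196 and an adjusted p of 0.852. It was -0.33 on centred arrays, with an unadjusted p of 0.106 by limma, and -0.49 on centred arrays without WT replicate 2. Bub1, another checkpoint kinase, read -1.41, -0.74 and -0.65 in WT and -1.67, -1.71 and -0.78 in HMGB2-KO livers, a change of -0.45 ± 0.31 (SE) with overlapping groups. Bub1b, which holds back the anaphase-promoting complex, changed by -0.06 ± 0.27, and Cdc20, which activates that complex, by -0.06 ± 0.14. On centred arrays both stood at 0.06.

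Cenpe, a kinesin at kinetochores, read -1.57, -1.20 and -1.10 in WT and -1.50, -1.60 and -1.26 in HMGB2-KO, overlapping. Cenpf, a large kinetochore and nuclear matrix protein, pointed higher at 0.13 ± 0.14 (SE), and 0.25 on centred arrays. Birc5, which encodes survivin of the chromosomal passenger complex, read -1.41, -2.98 and -1.47 in WT and -1.26, -1.77 and -1.85 in HMGB2-KO. WT replicate 2 was the outlying value: with it the change was 0.33 ± 0.41 (SE), and without it -0.18.

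Among genes of chromosomes, spindle and cytokinesis, Mki67 and Top2a had groups that did not overlap. Mki67, which coats mitotic chromosomes and marks dividing cells, read -2.67, -2.45 and -2.14 in WT and -2.87, -2.89 and -2.78 in HMGB2-KO. The HMGB2-KO livers agreed within 0.06 (SD, n = 3) and the WT livers within 0.27. Its change was -0.43 ± 0.17 (SE), 1.35-fold (limma unadjusted p 0.0351, adjusted p 0.852), and -0.31 on centred arrays, where the groups still did not overlap. Quantile normalization took it to -1.48 and Plk1 from -0.27 to -1.26. Top2a, the topoisomerase that untangles sister DNA, read -0.95, -0.90 and -0.87 in WT and -1.24, -1.30 and -1.19 in HMGB2-KO. Both groups were tight as deposited, and the change was -0.33 ± 0.13 (SE), 1.26-fold (limma unadjusted p 0.0317, adjusted p 0.852). After centring it was -0.22, with a WT SD of 0.17 (n = 3) and overlapping groups. It was -0.30 after centring without WT replicate 2.

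The remaining spindle and cytokinesis genes overlapped between genotypes. Anln, the anillin of the cleavage furrow, read -0.91, -0.60 and -1.29 in WT and -1.59, -1.19 and -1.37 in HMGB2-KO livers, a change of -0.45 ± 0.21 (SE), or -0.25 on centred arrays without WT replicate 2. Prc1, which bundles microtubules of the central spindle, changed by -0.24 ± 0.25 (SE). HMGB2-KO replicate 2 was its lowest liver at -2.30, and without that liver the change was 0.03. Tpx2, which activates Aurora A on the spindle, read -2.30, -1.46 and -1.77 in WT and -1.52, -1.63 and -2.71 in HMGB2-KO, so each group held 1 low liver. Nusap1, a spindle microtubule protein, changed by -0.07 ± 0.14 (SE).

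**Figure D3:**
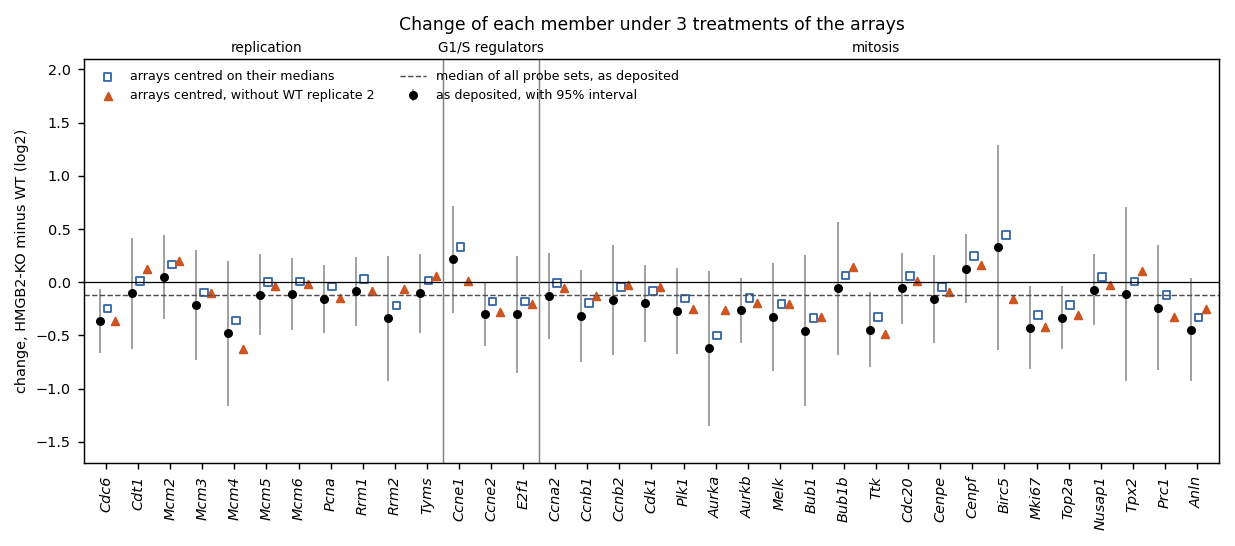
Change of each member (HMGB2-KO minus WT, log2) as deposited with its 95% interval (black), after each array was centred on its median (open squares), and after centring without WT replicate 2 (triangles); the dashed line is the median of all probe sets as deposited, at -0.12. Intervals exclude 0 for 4 of 35 members as deposited, and Birc5 and Aurka move most between the deposited values and centring without WT replicate 2.

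As a class, the mitosis genes lay below the median gene, by an amount that depended on single livers. Their median change was -0.24 as deposited, or -0.12 relative to all probe sets, with 15 of 21 below the median gene. On centred arrays without WT replicate 2 it was -0.16, with 17 of 21 below the median gene. Without WT replicate 3 the median relative to all probe sets shrank to -0.04, with 12 of 21 below the median gene. Without HMGB2-KO replicate 2 it was -0.08, again with 12 of 21, and without WT replicate 1 it was -0.19, with 17 of 21. The difference between the median changes, mitosis minus replication, was -0.13 as deposited and -0.10 without WT replicate 2. Quantile normalization widened it to -0.43, with a mitosis median of -0.46. For scale, the gap between the class levels of a liver had an SD of 0.16 over the HMGB2-KO livers (n = 3). In the fit to the deposited values, the 95% interval stayed within 2-fold in either direction for 31 of 35 members. It reached past 2-fold for Mcm4, Aurka, Bub1 and Birc5. These intervals do not cover the choice of normalization: with quantile normalization Mki67 was at -1.48 and Plk1 at -1.26. The ends of an interval lay 0.30 to 0.96 from the change on the log2 scale.

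Single livers also differed within a genotype. On centred arrays, WT replicate 3 was the highest of the 6 livers for 21 of 35 members (60.0%), where it was highest for 14.9% of all probe sets, and HMGB2-KO replicate 2 was the lowest for 13 of 35 (37.1%), against 15.9%. WT replicate 3 was highest for 13 of 58 other mitosis genes (22.4%) and 14 of 44 other replication genes (31.8%). Without WT replicate 3, the members lower at an unadjusted p under 0.05 by limma were Cdc6 and Anln, 5.71% of the 35 against 9.46% of all probe sets. Without HMGB2-KO replicate 2 that was Cdc6 alone (2.86% against 3.14% of all), and without HMGB2-KO replicate 1 Ttk alone (2.86% against 3.66%). Without HMGB2-KO replicate 3 the members were Mcm4, Plk1, Bub1 and Ttk (11.4% against 3.69%), and without WT replicate 1 they were Melk, Ttk and Mki67 (8.57% against 4.91%).

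**Figure D4:**
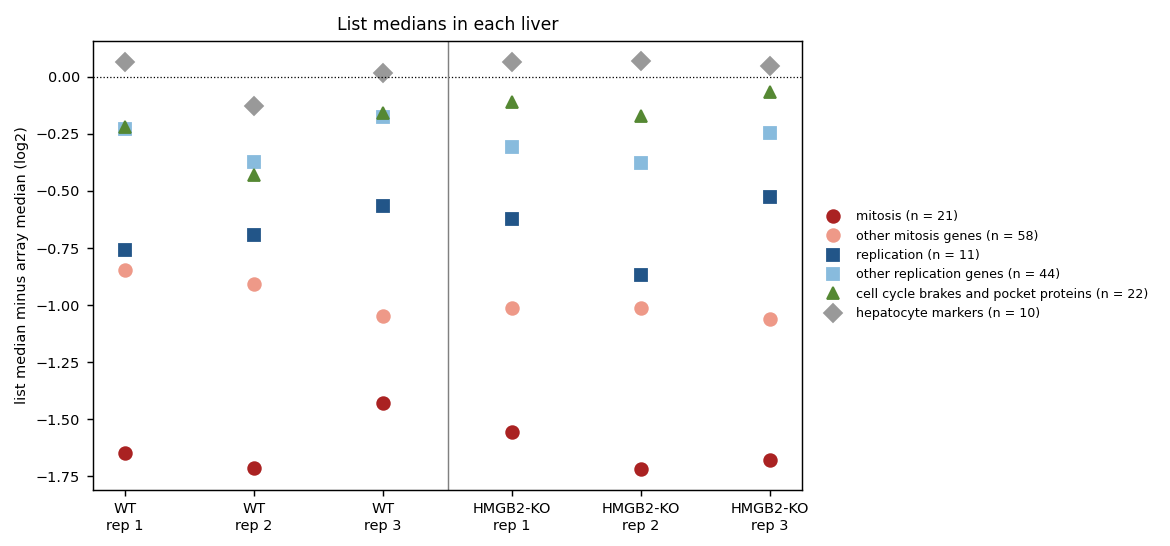
Median of each gene list in each liver, relative to the median of all probe sets on that array (log2), with lists told apart by colour and symbol. Mitosis genes lie between -1.72 and -1.43 and replication genes between -0.87 and -0.53 in the 6 livers, and the hepatocyte markers stay between -0.13 and 0.07.

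Further genes of the same pathways were read from lists chosen by function, with earlier results of these data already known. Of 44 other replication genes, 4 (9.09%) were lower at an unadjusted p under 0.05 by limma and 0 higher, where 4.85% of all probe sets were lower and 0.0721% higher. Groups did not overlap for 12 of 44 (27.3%), all lower, against 10.9% of all probe sets. On centred arrays it was 6 of 44 (13.6%) lower and 1 higher, against 5.57% and 4.22%. Without WT replicate 2 it was 12 (27.3%) lower and 2 higher, against 12.5% and 5.98%. Centred without that liver, 10 (22.7%) were lower and 2 higher, against 9.79% and 8.19%. The list had a median change of -0.12 as deposited, as had all probe sets. Centred without WT replicate 2 its median was -0.06, against -0.01 for all probe sets, with 29 of 44 below the median gene. The 3 with the smallest p were Gmnn, Pole and Prim2. Gmnn encodes geminin, the inhibitor of CDT1, and read 0.13, 0.27 and 0.05 in WT and -0.34, -0.72 and -0.48 in HMGB2-KO livers, a change of -0.67 ± 0.15 (SE, limma adjusted p 0.852) and -0.55 on centred arrays. Pole, the catalytic subunit of DNA polymerase epsilon, read -0.26, -0.25 and -0.20 in WT and -0.72, -0.77 and -1.37 in HMGB2-KO. Prim2, the large primase subunit, changed by -0.50 ± 0.18 (SE). All 3 had groups that did not overlap as deposited, and on centred arrays Prim2 overlapped while Gmnn and Pole stayed apart.

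Of 58 other mitosis genes, 4 (6.90%) were lower at an unadjusted p under 0.05 by limma and 0 higher as deposited. These shares were near the 4.85% and 0.0721% of all probe sets. On centred arrays 3 (5.17%) were lower, against 2.80%. Without WT replicate 2, 5 (8.62%) were lower and 1 higher, against 2.48% and 0.959%. Centring without that liver gave the same counts, against 1.86% and 1.39%. With quantile normalization 10 (17.2%) were lower and 2 higher, against 2.36% of all probe sets lower. Groups did not overlap for 6 of 58 (10.3%) on the lower side and for 1 on the higher side, against 10.9% and 0.779% of all probe sets. On centred arrays it was 4 (6.90%) lower and 3 higher, against 5.57% and 4.22%. Without WT replicate 2 it was 11 (19%) lower and 3 higher, against 12.5% and 5.98%. Centred without that liver, 9 (15.5%) were lower and 4 higher, against 9.79% and 8.19%. The median change of the list was -0.21, against -0.12 for all probe sets. The 3 genes with the smallest p were Ube2s, Sgo1 and Nek2. Ube2s, a ubiquitin enzyme of the anaphase-promoting complex, read -0.13, -0.18 and -0.51 in WT and -0.75, -0.92 and -0.73 in HMGB2-KO. Sgo1, which protects sister cohesion and is listed in the table under its older name Sgol1, changed by -0.48 ± 0.15 (SE), and Nek2, a centrosome kinase, by -0.50 ± 0.15. All 3, named for their small p, had HMGB2-KO livers below all WT livers, with adjusted p of 0.852 by limma. On centred arrays Nek2 overlapped. Of 22 CDK inhibitors, pocket proteins, DREAM subunits and repressor E2F genes, 0 reached an unadjusted p under 0.05 by limma. Among all probe sets 4.85% were lower and 0.0721% higher. The median change of the 22 was 0.0029, against -0.12 for all probe sets, with 17 of 22 above the median gene. On centred arrays it was 0.12, against -0.0057 for all probe sets. Rb1, the retinoblastoma protein gene, read 0.40, 0.93 and -0.25 in WT and -0.19, -0.59 and -0.01 in HMGB2-KO, overlapping. E2f4, the E2F of the DREAM complex, changed by -0.28 ± 0.18 (SE). Its groups did not overlap as deposited and overlapped on centred arrays. As deposited it was the 1 gene of the 22 (4.55%) lower without overlap, against 10.9% of all probe sets.

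Markers of cells that could bring cycling cells into the tissue were read beside these genes. Of 61 measured marker genes in 9 lists of liver, blood and stromal cells, 0 were lower and 2 higher at an unadjusted p under 0.05 by limma, where 4.85% of all probe sets were lower and 0.0721% higher. The 2 were Pecam1 of endothelial cells and Spp1 of cholangiocytes, and their lists did not move as a whole. As deposited, 4 of 7 endothelial and 4 of 6 cholangiocyte markers had a negative change, against 77.4% of all probe sets. On centred arrays it was 2 of 7 and 3 of 6, against 51.5%. List medians relative to each array's median ran from -0.18 to 0.58 in WT livers and from -0.20 to 0.63 in HMGB2-KO livers. Of the 61 marker genes, 1 was below 0 in all 6 livers. The part of cell composition in the members' values was not tested.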

How the data were processed

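Total RNA of 6 livers, 3 per genotype, was hybridised to 1-colour Clariom S mouse arrays. The authors deposited 1 table of processed values with 22206 rows, read here as log2 values centred gene by gene, because 24.2% of genes hold an exact opposite pair among the 6 arrays (within 2e-06) and 8.33% have a median of 0. Neither software, build nor log base is given in the sources used here, so folds rest on reading the values as log2. The second value table of the series was identical to it. A planned filter on dim probes was impossible, since centring removes brightness.

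Groups follow the genotype in the titles. The 22203 probe sets with a symbol were fitted with lmFit and eBayes of limma 3.58.1, run in R 4.3.3, on genotype alone, with Benjamini-Hochberg adjustment at 0.05 over all probe sets. The fit was tested on simulated data. Members were matched to probe sets by exact symbol and other list genes also through RefSeq synonyms (4 genes), with 185 of 188 other list genes measured. Members and lists were chosen with earlier results of these data known. All members are named, and of the other pathway lists up to 3 genes per direction with the smallest p under 0.05, or else the 2 smallest. Motifs were searched in Python 3.11.15. Precision is limited by the number of arrays.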

Additional observations from a re-analysis of the deposited data

How the results depend on the processing

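Alternatives were centring of arrays, quantile normalization, averaging of probe sets per symbol, array weights, robust eBayes, the liver number as a block, leaving out each array, and centring without WT replicate 2. The second value table was identical and gave no separate value, and a filter on dim probes was not run. limma called 0 probe sets at an adjusted p of 0.05 in all of them except array weights, which called 6 and weighted WT replicate 1 far above the other arrays. The unadjusted counts ran from 720 to 2124 besides array weights, which gave 2957. Array weights gave 7 members (20%) lower at an unadjusted p under 0.05, against 11.3% of all probe sets, and a mitosis median of -0.12, against -0.08 for all, with 11 of 21 below the median gene. Deviations of same-numbered livers from their group means correlated at 0.0161, 0.134 and 0.275 for numbers 1, 2 and 3. Each WT liver correlated best with the HMGB2-KO liver of its own number. HMGB2-KO replicate 1, though, correlated best with WT replicate 2 (0.105). The labels do not say that numbers pair livers, so the main fit left them unpaired. Whether livers of the same number share a factor was not tested. With the replicate block the lower members were 5 (14.3%, against 5.59% of all probe sets), without Cdc6 and Top2a and with Mcm4, Aurka and Anln beside Ttk and Mki67. The adjusted calls stayed at 0 and the medians did not change. The count of lower members was 0 on centred arrays (2.80% of all probe sets), 2 on centred arrays without WT replicate 2 (1.86% of all), and 1 to 4 when single arrays were left out (2.48% to 9.46% of all). The mitosis median was -0.12 on centred arrays, -0.46 with quantile normalization, and -0.34 to -0.18 when single arrays were left out. Mitosis minus replication was -0.43 with quantile normalization, which forces centred arrays of unequal spread onto 1 distribution. Over 13 alternatives, 412 of 455 recomputed member changes kept their direction, 43 did not, and 18 members kept it throughout.

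Changes that turned direction were small for the most part. On centred arrays they were Cdt1 0.014, Mcm5 0.0033, Mcm6 0.0085, Rrm1 0.033, Tyms 0.017, Bub1b 0.063, Cdc20 0.062, Nusap1 0.050 and Tpx2 0.0063. Centred without WT replicate 2, they were Cdt1 0.13, Tyms 0.055, Bub1b 0.15, Cdc20 0.015, Birc5 -0.16 and Tpx2 0.11. With array weights they were Mcm3 0.012, Mcm5 0.10, Mcm6 0.037, Ccna2 0.035, Ccnb2 0.13, Bub1b 0.45, Cdc20 0.080, Cenpe 0.043, Birc5 -0.13, Nusap1 0.0052 and Tpx2 0.28. With quantile normalization they were Cdt1 0.039, Mcm5 0.022, Tyms 0.083 and Birc5 -0.070. When single arrays were left out, 8 members turned. Cdt1 ran from -0.30 to 0.098, Mcm2 from -0.050 to 0.17, Tyms from -0.21 to 0.027, Ccne1 from -0.019 to 0.34, Bub1b from -0.38 to 0.12, Birc5 from -0.18 to 0.60, Prc1 from -0.40 to 0.031 and Tpx2 from -0.34 to 0.27. Of these 8, Cdt1, Tyms, Ccne1, Bub1b, Birc5 and Tpx2 turned without WT replicate 2. The cause was not tested. In the fit to the deposited values, the end of a 95% interval lay a median of 0.41 from a member's change. That sets the size of change that this fit can tell from 0.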
